A study of Mus musculus with 120 samples.

Results

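The genes described here are 33 markers of inhibitory neurons and genes of GABA signalling: the enzymes and carrier that make and load GABA, the peptides and calcium-binding proteins of interneuron classes, the neuregulin ligands with their receptor, subunits of the GABA receptors, and a receptor scaffold and a chloride transporter. Each was matched by symbol to a coding gene of the GRCm38.p6 annotation, and together they are 33 of 21631 coding genes and of 49554 genes of any kind. The study applied whole-genome bisulfite sequencing to App-NLGF mice (labelled APP-nlgf) and wild-type mice at postnatal weeks 3, 8 and 24, in hippocampus and in blood. App-NLGF mice carry mutations of familial Alzheimer's disease and a humanised amyloid-beta sequence in their own App gene, so the mutant protein is made under the native App promoter in every cell that uses it. The labels give 120 libraries in 12 groups, App-NLGF and wild type in each tissue at each age, with 10 libraries per group, 5 from males and 5 from females. They name no agent, and as far as the labels go the groups differ by genotype, tissue and age.

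What was analysed is the authors' list of called windows, each 1 kb long on a fixed grid of mm10, with a difference in methylation (percentage points) and its p-value, raw and adjusted, from their comparison of the genotypes with sex as a covariate. The list holds 8961 windows over 6 comparisons of tissue and age, all with an adjusted p below 0.1 and a difference of at least 10 points. A window was given to a gene when it overlapped the gene body or lay within 10 kb of it. Neither methylation levels nor read coverage nor single libraries were analysed here, so no difference below carries a spread between animals, its depth is unknown, and the labelled tissues could not be checked against marker levels. A positive difference is read as higher in App-NLGF, an order taken from the name of the comparison alone. Both tissues are mixtures of cells, so a change in the share of a cell type and a change within a cell type cannot be told apart. A gene with no called window may have been unchanged, just under a threshold or thinly covered.

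GABA is the main inhibitory transmitter of the adult brain. It is made from glutamate by the enzymes encoded by Gad1 and Gad2, loaded into vesicles by the carrier encoded by Slc32a1, and acts on chloride channels (GABA-A receptors) and on G protein-coupled GABA-B receptors. In the hippocampus it is released by a diverse minority of interneurons, whose classes are told apart by somatostatin, parvalbumin, vasoactive intestinal peptide, cholecystokinin and other markers. Methylation of cytosine in CpG dinucleotides is usually low at CpG-dense gene starts and high along gene bodies.

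The starts of the genes that carry the main pattern are shown here with every CpG in capitals. These are mostly not the CpGs on which the window values rest. A called window covers only part of the Gad1 and Kit stretches and none of the others. Sequences are from RefSeq on GRCm38.p6 and run from 250 bases before to 50 bases after an annotated transcription start, 5′ to 3′ on the gene's own strand. Of the 33 genes 28 have such an entry, with 38 starts in all. Gad1 (chr2:70561879-70562178, plus strand, 21 CpGs) and Kit (chr5:75574737-75575036, plus strand, 20 CpGs) are the members whose start region was overlapped by a called window. Gad2 (chr2:22622077-22622376, plus strand, 14 CpGs) and Slc32a1 (chr2:158610508-158610807, plus strand, 17 CpGs) had a window beginning just downstream. The second start of Lamp5 (chr2:136057498-136057797, plus strand, 2 CpGs) shows that a CpG-poor start also lay next to a window, and Reln (chr5:22344656-22344955, minus strand, 47 CpGs), the most CpG-dense of the 38, had none.
Gad1: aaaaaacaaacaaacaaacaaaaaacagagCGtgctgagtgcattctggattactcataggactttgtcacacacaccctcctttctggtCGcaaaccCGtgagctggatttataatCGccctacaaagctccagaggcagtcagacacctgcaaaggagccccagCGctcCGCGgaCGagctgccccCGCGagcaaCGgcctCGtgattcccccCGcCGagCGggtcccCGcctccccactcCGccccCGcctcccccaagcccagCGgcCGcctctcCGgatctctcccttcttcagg
Kit: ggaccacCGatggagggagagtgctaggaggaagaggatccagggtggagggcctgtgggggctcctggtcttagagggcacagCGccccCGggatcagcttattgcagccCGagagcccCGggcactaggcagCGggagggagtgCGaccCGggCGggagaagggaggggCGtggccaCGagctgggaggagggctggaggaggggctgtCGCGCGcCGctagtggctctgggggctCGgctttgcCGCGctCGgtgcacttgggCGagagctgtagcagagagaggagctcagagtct
Gad2: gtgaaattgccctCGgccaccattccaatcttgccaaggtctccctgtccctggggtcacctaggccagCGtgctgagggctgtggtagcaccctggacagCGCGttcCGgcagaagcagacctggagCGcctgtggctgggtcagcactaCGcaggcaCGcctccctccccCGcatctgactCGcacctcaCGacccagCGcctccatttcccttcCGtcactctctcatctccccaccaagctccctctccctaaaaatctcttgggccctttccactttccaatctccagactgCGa
Slc32a1: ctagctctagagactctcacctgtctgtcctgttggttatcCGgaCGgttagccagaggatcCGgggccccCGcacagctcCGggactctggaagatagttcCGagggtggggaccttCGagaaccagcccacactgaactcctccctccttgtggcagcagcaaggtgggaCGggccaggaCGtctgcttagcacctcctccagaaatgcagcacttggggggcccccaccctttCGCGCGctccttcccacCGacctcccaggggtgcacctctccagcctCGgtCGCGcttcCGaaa
Lamp5: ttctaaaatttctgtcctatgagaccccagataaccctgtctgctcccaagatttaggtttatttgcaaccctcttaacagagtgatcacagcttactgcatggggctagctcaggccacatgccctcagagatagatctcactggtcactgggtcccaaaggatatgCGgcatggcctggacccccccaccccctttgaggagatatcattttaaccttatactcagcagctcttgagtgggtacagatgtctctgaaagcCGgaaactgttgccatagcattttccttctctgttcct
Reln: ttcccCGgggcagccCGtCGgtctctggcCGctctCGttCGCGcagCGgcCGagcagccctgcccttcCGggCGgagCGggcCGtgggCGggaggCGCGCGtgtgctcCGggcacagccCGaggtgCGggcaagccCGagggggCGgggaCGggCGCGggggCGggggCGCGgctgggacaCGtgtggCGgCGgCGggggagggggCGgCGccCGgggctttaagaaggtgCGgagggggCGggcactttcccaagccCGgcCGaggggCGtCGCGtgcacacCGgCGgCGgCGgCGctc

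Called windows at these genes were mainly a feature of blood at week 8, and nearly all of those were lower in App-NLGF. Of the 33 genes 16 had a window in at least 1 of the 6 comparisons (48.5%), against 26.7% of coding genes. They held 24 windows, 18 lower and 6 higher. At week 8 in blood 12 genes had a window (36.4%), where 19.5% of all coding genes had one. The members are long genes, and per length the order turned, with 2.18 windows per Mb at members and 2.57 per Mb at coding genes. All 12 had a lower window, against 18.8% of coding genes, and 2 also had a higher window, against 0.966% of coding genes. Of the 17 windows there 15 were lower. The direction is that of the whole blood week 8 list, in which 88.9% of windows were lower, and 94.0% of those at coding genes.

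The other comparisons touched few of these genes. Blood at week 3 had 4 genes with a window (12.1%), against 2.79% of coding genes, with 3 windows higher and 1 lower. In hippocampus at week 3, 2 genes had a window (6.06%), against 2.6% of coding genes. In hippocampus at week 24 a single gene did (3.03%), against 2.43% of coding genes. No member had a window in hippocampus at week 8, where 1.74% of coding genes had one, or in blood at week 24, where 1.25% had one. Over all ages 3 of the 33 genes had a hippocampal window (9.09%, against 6.27% of coding genes) and 13 had a blood window (39.4%, against 22.4%). No member had windows in both tissues, against 1.94% of coding genes, which for 33 genes is less than a single gene. A single gene is 3.03% of the list, and no test over the members was made.

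**Figure D1:**
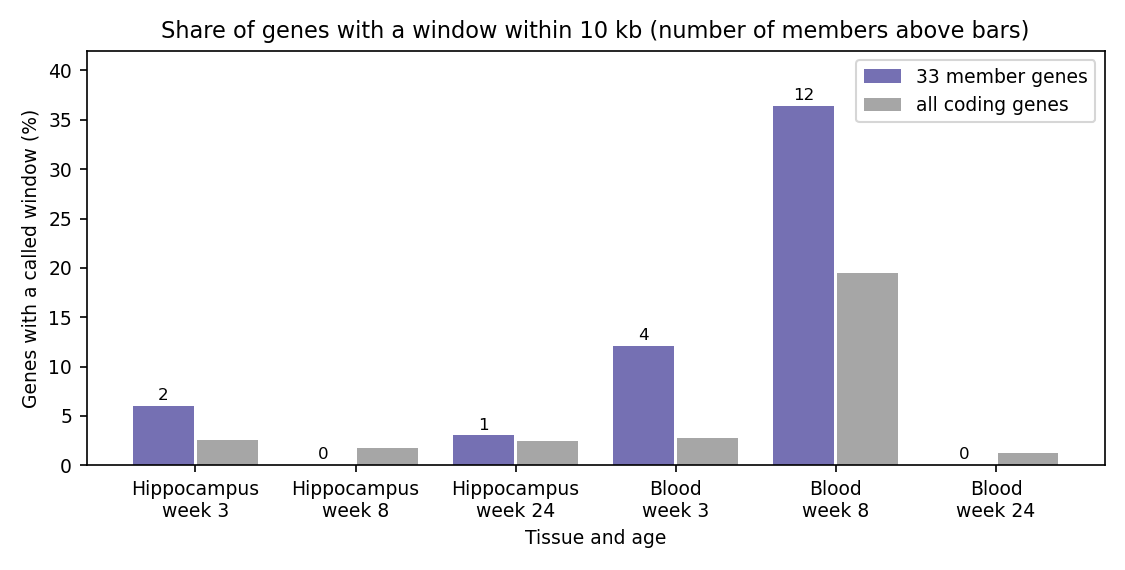
Share of genes (y axis, percent) with a called window within 10 kb in each tissue and age (x axis), for the 33 member genes (purple, number of genes above the bar) and for all coding genes (grey). The highest bars are those of blood at week 8, with 12 members (36.4%) and 19.5% of coding genes.

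The 3 genes that make and package GABA all had lower windows in blood at week 8, where 18.8% of coding genes had one. They had none in any other comparison, where 1.25% to 2.79% of coding genes had a window. In the authors' deposited table Gad1, which encodes the larger glutamate decarboxylase, was at -10.7 points in a window that holds its annotated start (chromosome 2, 70562001 to 70563000, adjusted p = 0.000833). A second Gad1 window, 6.87 kb downstream of that start, was at -11.2 points in the authors' deposited table (adjusted p = 0.0253). Both also lie on or within 10 kb of Gad1os, a long non-coding RNA gene of the same locus. Gad2, which encodes the smaller and mostly synaptic decarboxylase, had -12.7 points in the authors' deposited table, for a window 0.674 kb downstream of its start (chromosome 2, 22623001 to 22624000, adjusted p = 1.66e-05). That window is also within 10 kb of Myo3a. Slc32a1, the vesicular GABA carrier, had 2 windows in the authors' deposited table, at -10.1 points 0.243 kb downstream of its start (adjusted p = 0.0304) and at -12.1 points 3.24 kb downstream (chromosome 2, 158614001 to 158615000, adjusted p = 6.92e-05). The second of these is also near Actr5. All 5 windows lie on chromosome 2, at 3 separate loci, and by p-value the Gad2 window ranked 257 of the 4526 in the blood week 8 list.

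**Figure D2:**
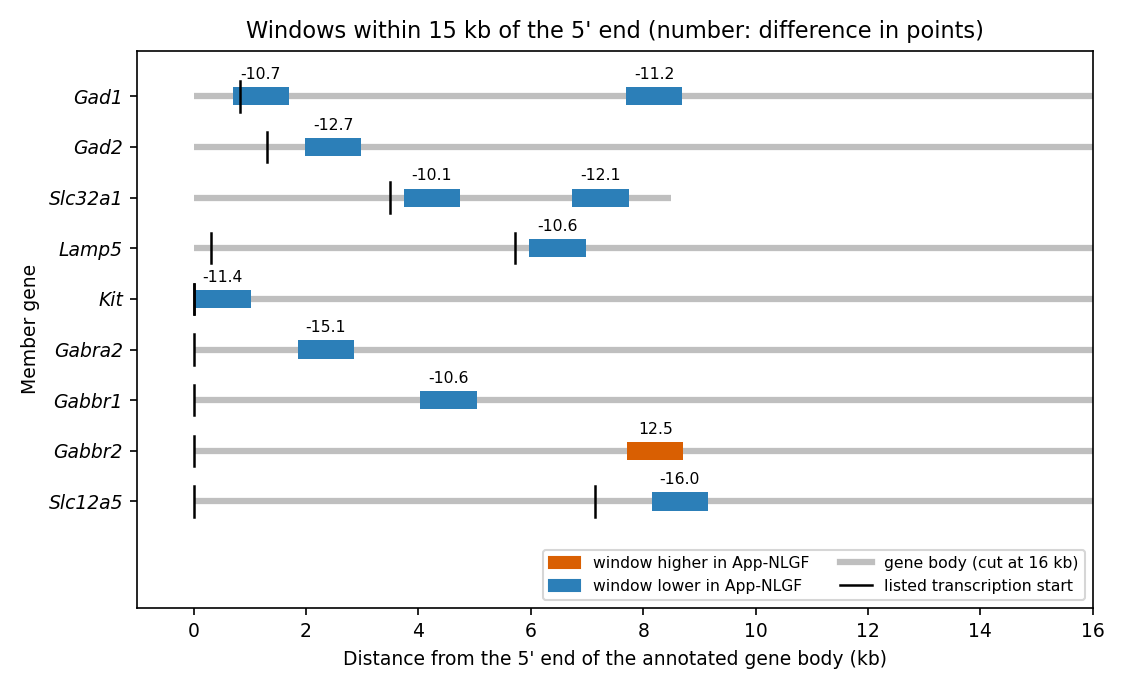
Windows within 15 kb of the 5′ end of a member gene with a listed start, drawn along the gene with 1 gene per row. The x axis is the distance from the 5′ end of the annotated gene body in kb. Grey lines are gene bodies, black ticks annotated transcription starts, blue boxes windows lower and orange boxes windows higher in App-NLGF, and the number over each box is the difference in points. The 10 blue boxes are from blood at week 8 and the orange one, at Gabbr2, is from blood at week 3. Windows at Htr3a, Calb2 and Nrg1 are not drawn, because these genes have no listed start and so no strand here. The Htr3a window is from hippocampus at week 3.

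Among the markers of interneuron classes, windows were few. Of the 8 peptide and calcium-binding protein genes only Calb2, which encodes calretinin, had one in any comparison, where 26.7% of coding genes did. The Calb2 window was at -10.7 points in blood at week 8 in the authors' deposited table, 1.79 kb outside the gene body (chromosome 8, 110170001 to 110171000, adjusted p = 0.0686). Sst, Pvalb, Vip, Npy, Cck, Calb1 and Tac1 had none in any comparison. These 8 genes span 1.77 kb for Sst to 25.7 kb for Calb2.

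Of 6 further interneuron genes 3 had a window in any comparison, each lower, where 26.7% of coding genes had a window. Kit, a receptor tyrosine kinase that marks some interneurons and is also the stem cell factor receptor of blood-forming cells and mast cells, had the smallest p-value of all the members. Its difference in the authors' deposited table was -11.4 points in blood at week 8, in a window that begins 0.010 kb after the nearer of its 2 annotated starts (chromosome 5, 75575001 to 75576000, adjusted p = 4.26e-07), and it ranked 76 of 4526 by p-value. Its size was ordinary for that list, ranking 2533 of 4526 by absolute difference. Lamp5, a membrane protein of neurogliaform cells, was at -10.6 points for blood at week 8 in the authors' deposited table, 0.253 kb downstream of its second start (adjusted p = 0.0220). Htr3a, the ionotropic serotonin receptor subunit of interneurons derived from the caudal ganglionic eminence, was at -10.6 points in hippocampus at week 3 in the authors' deposited table (chromosome 9, 48902001 to 48903000, adjusted p = 0.0475). That value is near the lower limit of the list and ranked 948 of 1024 by size. Reln, Cnr1 and Nos1, which encode the matrix protein reelin, the cannabinoid receptor of cholecystokinin cells and neuronal nitric oxide synthase, had no window.

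**Figure D3:**
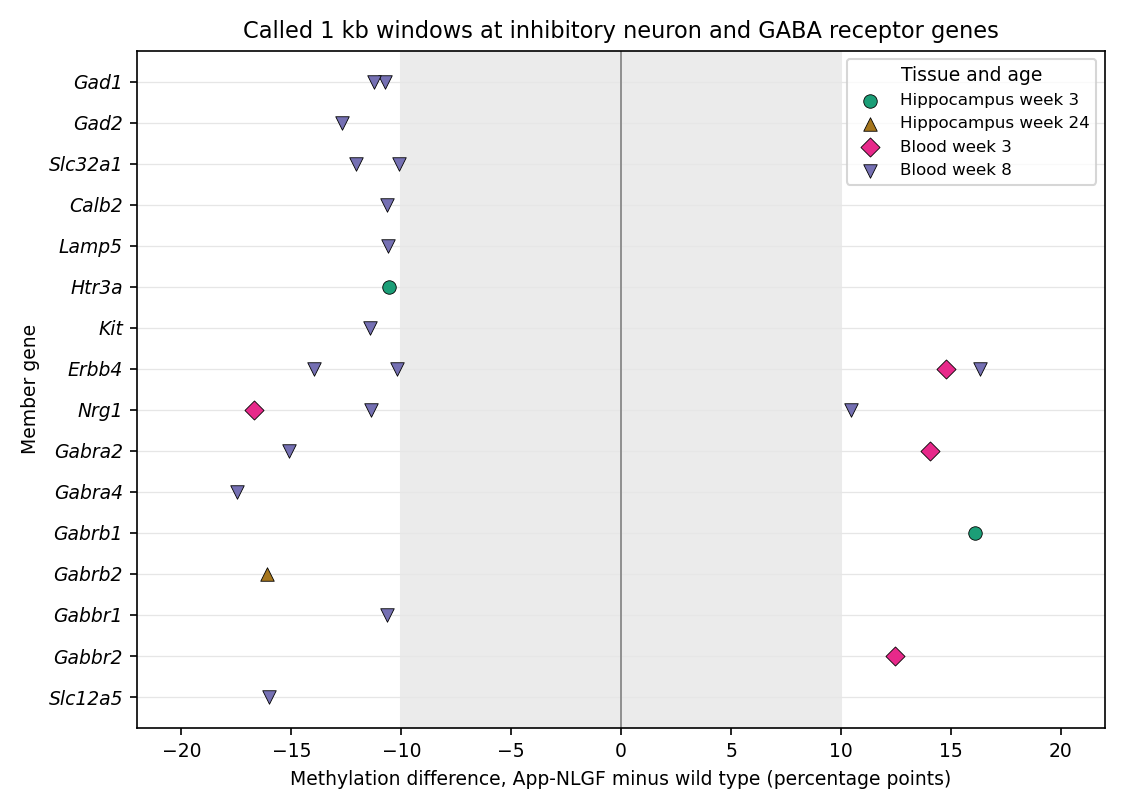
Methylation difference (x axis, percentage points, App-NLGF minus wild type) of each called window at the 16 member genes that had one (rows), with a symbol for each tissue and age. The grey band, from -10 to 10 points, holds no window by the authors' limit. Blood week 8 symbols lie left of the band in 15 of 17 cases, and hippocampal symbols appear at Htr3a, Gabrb1 and Gabrb2 only.

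Erbb4 and Nrg1, the longest members with windows at 1077 and 1084 kb, had windows of both signs. Neuregulins are growth factors, and their receptor, encoded by Erbb4, is concentrated in interneurons in the forebrain. In blood at week 8 the authors' deposited table has 3 windows within Erbb4, at -10.2, -14.0 and 16.3 points (adjusted p = 0.0964, 0.0338 and 0.0375), the lower -14.0 and the higher 16.3 lying 56 kb apart. The week 3 blood window of Erbb4 was at 14.8 points in the authors' deposited table (adjusted p = 0.0478), 47 kb from the week 8 window at -10.2. Nrg1 was at 10.5 and -11.4 points in blood at week 8 (adjusted p = 0.0971 and 0.0162) and at -16.7 points in blood at week 3 (adjusted p = 0.0456) in the authors' deposited table. The lower Nrg1 windows of the 2 ages were 11 kb apart, and the week 8 one is also within 10 kb of Gm3985, another annotated coding gene. Along both genes windows of either sign were called, and no single direction describes them. Nrg3, a further neuregulin gene of 1108 kb, had no window within 10 kb.

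Of the 9 GABA-A receptor subunit genes listed here 4 had a window in any comparison, where 26.7% of coding genes had one, and those of Gabrb1 and Gabrb2 were hippocampal. The 9 are only a part of the subunit genes, so this share does not describe the receptor family. It is also not matched for gene length. In the authors' deposited table Gabrb1 was at 16.1 points in hippocampus at week 3, deep inside the gene and 172 kb from the nearest annotated start (chromosome 5, 71872001 to 71873000, adjusted p = 0.0328). Gabrb2, the beta subunit of the commonest receptor type, was at -16.1 points in hippocampus at week 24 in the authors' deposited table, 183 kb inside its gene (chromosome 11, 42604001 to 42605000, adjusted p = 0.0927). The Gabrb1 window ranked 319 of 1024 in its list by size and the Gabrb2 window 322 of 949. The Gabrb2 window stood close to the adjusted p limit, ranking 842 of 949 by p-value.

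In blood, Gabra2, an alpha subunit of forebrain receptors, had a window at 2 ages with opposite signs. Gabra2 in the authors' deposited table was at 14.1 points at week 3 (chromosome 5, 71062001 to 71063000, adjusted p = 0.00349), 32.8 kb downstream of its start, and at -15.1 points at week 8 (adjusted p = 0.0931), 1.85 kb downstream. These are different windows, 30 kb apart, and the difference between the ages was not tested. Gabra4, a subunit of extrasynaptic receptors, was at -17.5 points in blood at week 8 in the authors' deposited table, 3.73 kb beyond the 3′ end of the gene (adjusted p = 0.0582). This was the largest difference among the 24 windows. Gabra2, Gabra4 and Gabrb1 are neighbours on chromosome 5 together with Gabrg1, which had no window. Gabra5 and Gabrg3, of the chromosome 7 cluster, Gabra3 on X and Gabrd, the delta subunit of tonic inhibition, had none.

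Both GABA-B receptor subunit genes had a window in blood, where 22.4% of coding genes had one. The windows were at different ages and in opposite directions. In the authors' deposited table Gabbr1, which encodes the GABA-binding subunit, was at -10.6 points at week 8, 4.04 kb downstream of its start (chromosome 17, 37050001 to 37051000, adjusted p = 0.000175). Gabbr2, the subunit that couples to G proteins, was at 12.5 points at week 3 in the authors' deposited table, 7.71 kb downstream of its start (chromosome 4, 46983001 to 46984000, adjusted p = 0.00349). The windows of Gabbr2 and Gabra2 ranked 48 and 49 of the 1153 in the blood week 3 list by p-value.

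Slc12a5 encodes the potassium-chloride cotransporter that keeps neuronal chloride low and so sets the sign of the GABA-A response. Its window in the authors' deposited table was at -16.0 points in blood at week 8, 1.01 kb downstream of its second annotated start (chromosome 2, 164969001 to 164970000, adjusted p = 0.00221). By size it ranked 436 of 4526, in the top 9.63% of that list. Gphn, which encodes the scaffold gephyrin that anchors GABA-A and glycine receptors, had no window although its body spans 467 kb.

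The member windows of blood at week 8 were of ordinary size for that list. Their median absolute difference was 11.4 points, against 11.7 points for all 4526 windows and 11.4 points for those at coding genes. The medians for blood at week 3 were 14.4 points for the 4 member windows and 14.9 points for all 1153. Of the 24 member windows 18 had an adjusted p under 0.05 and 5 under 0.001, at Gad1, Gad2, Slc32a1, Kit and Gabbr1.

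**Figure D4:**
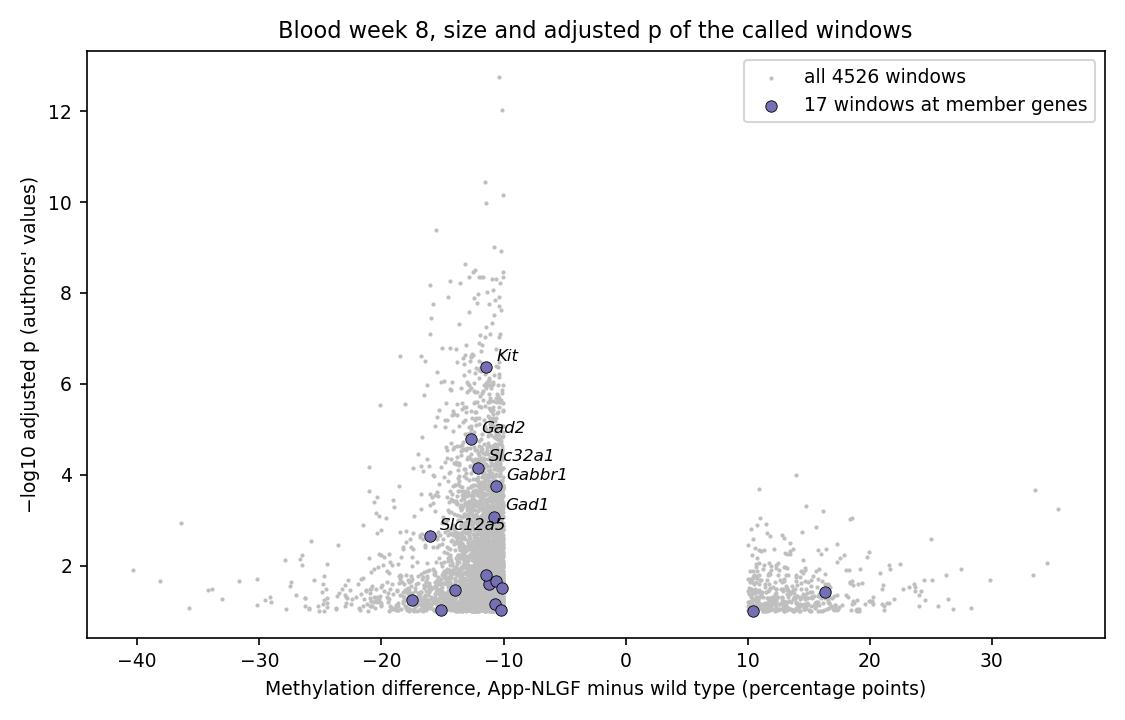
Size (x axis, percentage points, App-NLGF minus wild type) and −log10 of the authors' adjusted p (y axis) of the 4526 windows called in blood at week 8 (grey), with the 17 windows at member genes in purple and the 6 genes with the smallest adjusted p named. The member windows lie within the grey cloud, with Kit highest at an adjusted p of 4.26e-07.

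Of the 17 member windows of blood at week 8, 3 lay within 1 kb of either end of a coding gene body, at Gad1, Kit and Slc32a1, against 1895 of the 4526 in the list (41.9%). Leaving such windows out gave 11 members (33.3%), against 6.66% of coding genes. Transcription starts can also lie inside a gene body, so windows close to a start were kept. They lay 0.674 kb from a start at Gad2, 0.243 kb at Slc32a1, 0.253 kb at Lamp5 and 1.01 kb at Slc12a5. The shares of 33.3% and 6.66% are also not matched for gene length. Of the 14 member windows whose gene has a listed start, 7 were within 2 kb of it, a distance chosen after the values were seen, and 6 of these lay wholly downstream. In the same list 53.5% of the 3293 windows at coding genes were within 2 kb of a coding start: 1118 held the start, 460 lay downstream and 184 upstream. The 300 bases around a start were overlapped by 2 of the 14 member windows and by 37.3% of the windows at coding genes. Member windows were set against starts of their own gene only, and windows at coding genes against any coding start nearby. For both distances the values of members and of coding genes are therefore not like for like.

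Starts of the members were close to those of other genes in CpG content. The 38 listed starts of 28 members held a median of 15.5 CpGs per 300 bases, against 13 for 21045 starts of coding genes. A ratio of observed to expected CpG of 0.6 or more was reached by 19 of the 38 member starts and by 48.2% of all. Windows of blood at week 8 overlapped 3 of the 19 member starts at or above that ratio, 2 of them the nearly identical Kit starts, and 0 of the 19 below it. The Kit window begins after both Kit starts, so it meets only the downstream end of those stretches. For coding genes they overlapped 1220 of 10138 starts at or above it and 307 of 10907 below it (2.81%). The search was for the letters CG, which read the same on both strands.

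Gene length bears on all counts of genes, since a long gene covers more windows, and the members are long, with a median of 72.9 kb against 17.3 kb for coding genes. In blood at week 8 the members between 20 and 100 kb carried most of the count: 7 of 11 had a window (63.6%), against 19.2% of coding genes of that length. Below 20 kb it was 2 of 10, against 17.4%. From 100 to 500 kb it was 1 of 8, against 28.0%, and above 500 kb it was 2 of 4, against 54.6%. The 7 genes are Gad1, Gad2, Calb2, Kit, Gabra4, Gabbr1 and Slc12a5. Densities per Mb count gene bodies with their 10 kb flanks. In hippocampus the order turned as well: at week 3 the density was 0.257 per Mb in members and 0.395 per Mb in coding genes, and at week 24 it was 0.128 per Mb in members and 0.374 per Mb in coding genes. Of the 6 comparisons only blood at week 3 had the members denser, at 0.513 per Mb in members and 0.426 per Mb in coding genes.

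**Figure D5:**
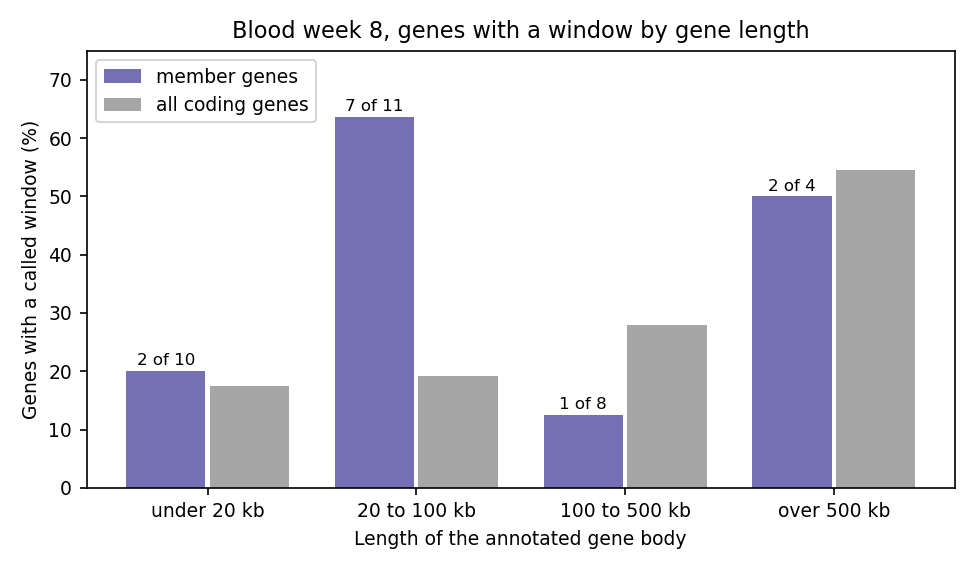
Share of genes (y axis, percent) with a called window in blood at week 8, by length of the annotated gene body (x axis), for member genes (purple, counts above the bars) and all coding genes (grey). Members stand above coding genes from 20 to 100 kb, at 63.6% against 19.2%, and below them from 100 to 500 kb, at 12.5% against 28.0%.

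The 10 kb limit left out a few windows close by. The nearest outside it in the authors' deposited table was 11.3 kb from Slc32a1, at -10.7 points in blood at week 8 (adjusted p = 0.0765). The next were 12.1 kb from Pvalb, at -14.8 points in blood at week 8 (adjusted p = 0.0160), and 17.4 kb from Gabrb1, at -15.3 points in blood at week 8 (adjusted p = 3.73e-06), in the authors' deposited table. Inside the limit the farthest windows were those at Gabra4 and Calb2, 3.73 and 1.79 kb from their genes, and all others lay within a gene body. No window of a member was called at more than 1 age or in both tissues, and in all lists 18 windows were.

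Of 65 other genes of inhibitory signalling 16 had a window in blood at week 8 (24.6%), against 19.5% of coding genes, and all 20 windows were lower. Interneuron transcription factors had 9 of 17 genes with a window there, inhibitory synapse organisers 4 of 12, and the 36 genes of the remaining lists 3 (8.33%). Among those 36, further interneuron markers had 3 of 15, and genes of GABA transport and breakdown 0 of 7. Among these genes that differed most there, the authors' deposited table gives Sox6 at -15.4 points, Clptm1 at -14.4, Tacr1 at -14.2, Nxph1 at -13.5, Nlgn2 at -13.0, Lhx6 at -12.9 and Dlx5 at -12.5. The adjusted p was 0.0582 for Sox6, 0.0762 for Clptm1, 0.0324 for Nxph1 and 0.0151 for Nlgn2, and under 0.01 for the others. The Clptm1 window lay 2.97 kb outside its gene. The Nlgn2 window lay 8.22 kb outside Nlgn2 and within 1 kb of an end of another coding gene. Sox6 and Lhx6 direct the development of interneurons born in the medial ganglionic eminence, and Nlgn2 encodes the neuroligin of inhibitory synapses. A single gene of the 65 had a window in blood at week 3 (1.54%), against 2.79% of coding genes. It was Sox6, at 22.5 points in the authors' deposited table (adjusted p = 0.0550).

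Of these 65 genes 2 had a window in hippocampus at week 3 (3.08%), against 2.6% of coding genes. At week 8 it was 1 (1.54%), against 1.74%, and at week 24 it was 3 (4.62%), against 2.43%. Kctd16, an auxiliary subunit of GABA-B receptors, was at -16.6 points at week 3 and at 10.4 points at week 8 in the authors' deposited table, for different windows. The adjusted p was 0.0256 at week 3 and 0.0617 at week 8. Sp8, a factor of late-born interneurons, was at -10.9 points at week 3 in the authors' deposited table (adjusted p = 0.0944). At week 24 the authors' deposited table gives Lhfpl4, a GABA-A receptor partner, at 11.5 points, Insyn2a, of the inhibitory postsynapse, at -10.4 points and Crhbp, which binds corticotropin-releasing hormone, at 14.6 points. The adjusted p was 0.0939 for Lhfpl4, 0.0139 for Insyn2a and 0.0370 for Crhbp. These windows lay outside the gene bodies, 4.09 kb from Lhfpl4, 2.91 kb from Insyn2a and 6.38 kb from Crhbp.

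Markers of other cell types had windows in blood at week 8 as well: 2 of 8 excitatory neuron genes, 0 of 6 astrocyte genes, 2 of 9 oligodendrocyte genes, 0 of 6 microglial genes, 2 of 4 vascular genes and 3 of 14 blood cell genes. Together these are 9 of 47 genes (19.1%), against 19.5% of coding genes. The same 47 genes had 1 with a window in hippocampus at week 3, 0 at week 8 and 1 at week 24 (2.13%, 0% and 2.13%). The shares of coding genes there were 2.6%, 1.74% and 2.43%. In blood 3 had a window at week 3 (6.38%, against 2.79%) and 1 at week 24 (2.13%, against 1.25%). Whether cell mixture has a part in the windows at inhibitory neuron genes was not tested, since no levels were used.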

How the data were processed

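Genomic DNA of hippocampus and blood was sheared, made into libraries, converted with bisulfite and amplified, per the labels' protocols, and DNA of each tissue was extracted with its own kit. The tools named, per the submitters' processing notes, are methylKit, Bismark, Trim Galore and FastQC, with mm10 as the build. Versions, coverage limits and the method of adjustment were not given in these sources. The p-values, the adjusted p-values and the methylation differences in percentage points are the authors' own, as deposited, for 1 kb windows of 6 comparisons. The number of per-library columns used was 0, so no test was refitted and no library could be left out.

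Windows were joined to gene bodies of the GRCm38.p6 table, whose coordinates are those of mm10, with pandas 2.3.3 in Python 3.11.15, and the join was checked on simulated intervals. Starts, strand and sequence came from the RefSeq promoter table of the same build. Shares of members are set beside shares of all coding genes, with no test over the members. The members and lists were chosen with earlier results of these data known. Every member with a window is named, and of other genes of the pathway all with a hippocampal window and the 8 largest by absolute difference per blood comparison, though not every gene this rule names is reported here. Alternatives changed the distance to the gene, the adjusted p, the size of the difference and the use of windows at gene ends.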

Additional observations from a re-analysis of the deposited data

How the results depend on the processing

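The number of members with a window stayed within 1.5 times of the reported count in all 6 comparisons when gene bodies alone or 5 kb flanks were used and without the windows at gene ends. In blood at week 8 those settings gave 10 (30.3%), 12 (36.4%) and 11 (33.3%) genes. The shares of coding genes were 13.1%, 16.7% and 6.66%. With 50 kb flanks the count was 5 in hippocampus at week 3 (15.2%), against 5.62% of coding genes. It was 2 in hippocampus at week 8 (6.06%, against 3.7%) and 2 in blood at week 24 (6.06%, against 2.7%). For blood at week 8 it was 14 (42.4%), against 35.2%. At an adjusted p under 0.01 the count was 0 in hippocampus at week 3 and at week 24, against 0.199% and 0.245% of coding genes. It was 2 in blood at week 3 (6.06%, against 0.319%) and 6 in blood at week 8 (18.2%, against 11.5%). With differences of at least 15 points it was 1 in hippocampus at week 3 (3.03%), against 0.92% of coding genes. It was then 1 in blood at week 3 (3.03%, against 1.16%) and 4 in blood at week 8 (12.1%, against 1.36%). Both stricter settings keep fewer windows by construction. Of 72 recounts of higher or lower member windows, 56 stayed within 1.5 times and 16 did not, 10 of these being smaller. No paired analysis was possible because the files used hold no values per library, and for the same reason no replicate could be left out. Depth per window is unknown, so a well covered difference and a thinly covered one look alike here.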

Other observations

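The distal-less genes, transcription factors that act in the precursors of forebrain interneurons and lie in pairs, had lower windows in blood at week 8 at both pairs listed here. On chromosome 2 the authors' deposited table gives -10.4 points inside Dlx1 (adjusted p = 0.000960), -11.1 points inside Dlx2 (adjusted p = 0.000968) and -10.1 points between them (adjusted p = 0.00547). On chromosome 6 the authors' deposited table gives -12.0 points 0.334 kb from Dlx6 (adjusted p = 0.00547) and -12.5 points inside Dlx5 (adjusted p = 0.00670). A lower window in blood at week 8 was found at 18.8% of coding genes. The distal-less genes were named from their values in the list of interneuron transcription factors, and no test over them was made.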
